A study of Homo sapiens with 12 samples.

Results

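The NDRG family (N-myc downstream regulated genes) was followed in the RNA of MDA-MB-231 cells, an established human line from a triple-negative breast cancer. Its 4 members, *NDRG1*, *NDRG2*, *NDRG3* and *NDRG4*, were taken by symbol from a table of 60664 genes, and each symbol matched 1 row. The table holds 12 libraries in 3 groups of 4. WT normoxia is wild type cells without treatment, WT hypoxia is wild type cells kept for 24 hr at 1% O2, and CCAR2 KO is untreated cells of genotype CCAR2-/-. All are MDA-MB-231 cells, and no library of CCAR2 KO cells in hypoxia was analysed here. The KO cells were made with a lentiviral CRISPR vector and 1 guide, and whether they are a single clone is not given in the sources used here. *CCAR2* encodes DBC1, a nuclear regulator of SIRT1 and p53 signalling.

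NDRG proteins share an alpha/beta hydrolase fold but are not known to act as hydrolases. NDRG1 is known as a stress gene, raised by hypoxia, by iron depletion and by DNA damage and repressed by MYC proteins, and its protein is phosphorylated by SGK1. NDRG2 is best known from astrocytes and is often silenced in tumours, and NDRG4 is best known from neurons and heart. NDRG3 is known for control at the protein level, where the oxygen sensor EGLN1 marks it for degradation in normoxia and lactate stabilises it in hypoxia. The libraries measure transcripts, so that protein levels are not part of what follows.

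The libraries were compared as labelled. *CCAR2* was at 146 ± 3.11 CPM in WT normoxia, 149 ± 4.95 CPM in WT hypoxia and 57.8 ± 2.81 CPM in CCAR2 KO (SD, n = 4 libraries each), where CPM are counts divided by a library size adjusted with TMM. Its log2 fold change in KO cells was -1.34 (SE, the standard error of the fit, 0.04). The sum of estimated counts per library was 153904088 to 213743693 in normoxia, 76384973 to 195621872 in hypoxia and 68599412 to 152328450 in KO cells. Hypoxia replicates 1 and 2 and KO replicate 2 were the shallow libraries, the largest of them at 83773680 and the smallest of the others at 128809368. The defining markers *VIM*, *CD44*, *ZEB1*, *FOSL1*, *AXL* and *CAV1* were all present, the lowest being *ZEB1* at 40.1 to 72.3 CPM. *ESR1*, *PGR* and *CDH1* were at most 0.470 CPM. *FOXA1* was at 0.712 to 1.60 CPM, *GATA3* at 4.83 to 8.21 CPM and *ERBB3* at 7.58 to 13.6 CPM. Of the markers of other cell types, *PTPRC* was at most 0.236 CPM, *SYP* at most 0.610 CPM, *GFAP* at most 1.33 CPM and *PECAM1* at most 5.76 CPM. *PECAM1* was called higher in KO cells than in WT normoxia, at 5.51 ± 0.316 against 2.56 ± 0.514 CPM, and *ZEB1* lower in hypoxia, at 43.9 ± 3.48 against 62.6 ± 6.64 CPM, and their part in the results below was not tested.

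*NDRG1* was the member that hypoxia moved by the largest factor. It lies on the minus strand at 133237171 to 133302022 of chromosome 8 (GRCh38, GENCODE annotation), as ENSG00000104419, and no other annotated gene overlaps it. In WT normoxia its 4 libraries had 180, 208, 199 and 233 CPM. In WT hypoxia they had 1323, 1258, 1166 and 1240 CPM. In CCAR2 KO they had 246, 254, 291 and 269 CPM. The 3 groups did not overlap, with normoxia lowest, KO cells slightly above it and hypoxia far above both.

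Between WT hypoxia and WT normoxia, 1247 ± 64.5 against 205 ± 22.2 CPM (SD, n = 4) was a 6.09-fold difference of the means. The log2 fold change was 2.60 (SE 0.08, adjusted p = 5.0e-08 in the quasi-likelihood test of edgeR, adjusted over 21776 genes by Benjamini and Hochberg). A gene was called when the adjusted p was under 0.05 and the absolute log2 fold change at least 0.5. By log2 fold change it ranked 35 of the 21776 genes, and among the 9696 genes with a mean of at least 10 CPM it ranked 2. In bulk RNA, more transcript in each cell and more cells that express the gene cannot be told apart. *NDRG1* took 0.0202% of the library in normoxia, 0.125% in hypoxia and 0.0268% in KO cells.

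In CCAR2 KO cells *NDRG1* was at 265 ± 19.7 CPM, 1.29 times the mean of WT normoxia. The log2 fold change of 0.37 (SE 0.08) had an adjusted p of 0.00258 in edgeR's test, but it stayed under the limit on the fold change, so that the gene was not called. The exact two-sided permutation test over the 70 splits of 4 against 4 libraries gave an unadjusted p of 0.0286, which is the smallest p it can give. KO cells were lower than WT hypoxia by a log2 fold change of -2.24 (SE 0.07, adjusted p = 4.1e-09, edgeR). The KO and hypoxia comparisons share their WT normoxia libraries.

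**Figure D1:**
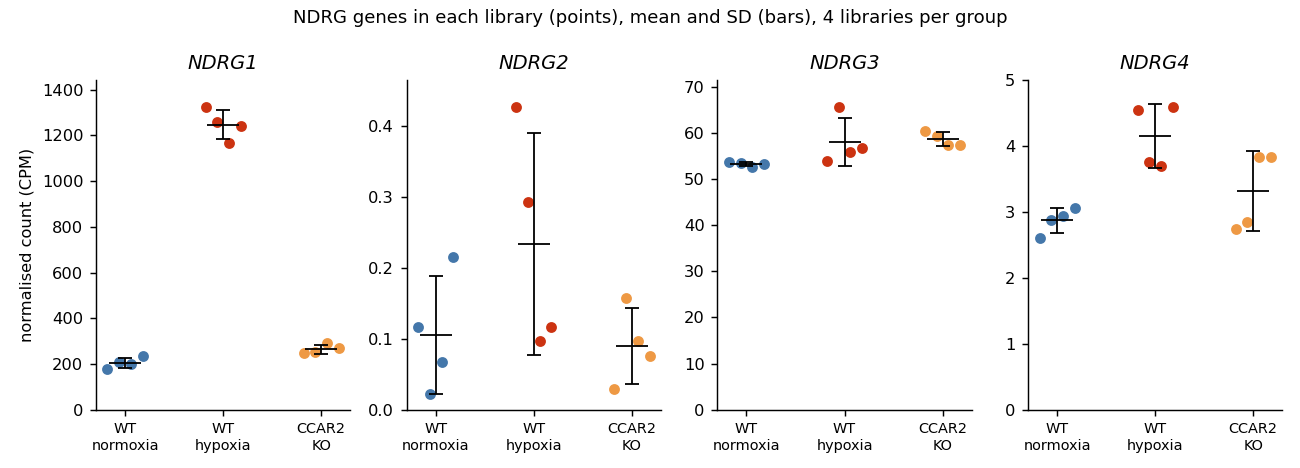
Normalised counts of the NDRG genes in CPM (vertical axes from 0, a separate scale for each gene) in each of the 12 libraries (points, from replicate 1 on the left to 4 on the right) with group means and SD (black bars). The 4 hypoxia libraries of *NDRG1* lie between 1166 and 1323 CPM, above all other libraries, while the *NDRG2* groups overlap at or under 0.427 CPM.

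*NDRG4*, the member best known from neurons and heart, was also higher in hypoxia, at a low level. It lies on the plus strand at 58462846 to 58513628 of chromosome 16 (ENSG00000103034). In WT normoxia its libraries had 2.60, 2.88, 2.94 and 3.06 CPM, from 468 to 613 estimated counts. In WT hypoxia they had 4.54, 3.76, 3.69 and 4.59 CPM, and in CCAR2 KO 2.74, 2.84, 3.84 and 3.84 CPM. Every hypoxia library was above every normoxia library, while the KO libraries fell as a low pair, replicates 1 and 2, and a high pair, replicates 3 and 4, and overlapped with both other groups.

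Means of 4.15 ± 0.486 CPM in hypoxia and 2.87 ± 0.195 CPM in normoxia (SD, n = 4) gave *NDRG4* a log2 fold change of 0.52 (SE 0.12, adjusted p = 0.00833, edgeR), just past the limit for a call. With normoxia replicate 1, hypoxia replicate 1 or hypoxia replicate 4 left out, it was 0.47, 0.48 or 0.47, with adjusted p of 0.0257, 0.0249 and 0.0294, and was no longer called. In KO cells *NDRG4* was at 3.31 ± 0.608 CPM, with a log2 fold change of 0.21 (SE 0.14, adjusted p = 0.292) from WT normoxia and -0.32 (SE 0.15, adjusted p = 0.122) from WT hypoxia. Neither was past the threshold.

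Of the 4 members, all of which could be tested, 2 were thus called in hypoxia, both higher, where 7.26% of all genes tested were called, 5.83% higher and 1.43% lower. In CCAR2 KO against WT normoxia none of the 4 was called, where 9.67% of genes were (6.73% higher and 2.94% lower), although 2 of them, *NDRG1* and *NDRG3*, had an unadjusted and an adjusted p under 0.05 in edgeR. DESeq2 and limma-voom called none of the 4 there either. In CCAR2 KO against WT hypoxia 1 of 4, *NDRG1*, was called, where 15.0% of genes were called, 7.08% higher and 7.88% lower. The median log2 fold change of the members was 0.81 in hypoxia and 0.17 in KO cells, beside 0.01 over all genes tested in each. With only 4 members, the hypoxia median lies midway between *NDRG4* at 0.52 and *NDRG2* at 1.10. The *NDRG2* value comes from very low counts (SE 0.69, adjusted p = 0.289, edgeR), and *NDRG3* was at 0.11. That median is therefore no measure of a rise shared by the members.

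*NDRG3* was nearly level. It lies on the minus strand at 36651766 to 36746078 of chromosome 20 (ENSG00000101079). In WT normoxia the libraries had 53.7, 53.5, 52.6 and 53.3 CPM, the tightest group of any member, with an SD of 0.863% of the mean. In WT hypoxia they had 53.8, 65.5, 55.9 and 56.6 CPM, and in CCAR2 KO 60.5, 59.2, 57.4 and 57.4 CPM. All hypoxia and all KO libraries were above all normoxia libraries, the lowest hypoxia library by little, and hypoxia replicate 2 stood above the rest of its group.

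The difference of *NDRG3* in hypoxia, 58.0 ± 5.18 against 53.3 ± 0.460 CPM (SD, n = 4), was a log2 fold change of 0.11 (SE 0.06, adjusted p = 0.235, edgeR), which did not pass the threshold. The exact permutation test gave an unadjusted p of 0.0286, the smallest it can give, which restates that the groups did not overlap. Without hypoxia replicate 2 the log2 fold change in hypoxia was 0.04 (adjusted p = 0.460, edgeR), the lowest of 18 alternatives. In KO cells, at 58.6 ± 1.51 CPM, the log2 fold change of 0.14 (SE 0.04) had an adjusted p of 0.0169 in edgeR's test, and at a 1.10-fold difference of the means it was not called. That adjusted p was past the threshold in 12 of 18 alternatives. Among the others it was 0.0836 in 1 fit of all 12 libraries, 0.0753 with no filter and 0.0507 without KO replicate 2 (edgeR). Leaving out the shallow libraries is the same fit as leaving out KO replicate 2 in this comparison. KO cells and WT hypoxia differed by a log2 fold change of 0.01 (SE 0.06, adjusted p = 0.906).

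*NDRG2*, the astrocyte member, was close to the limit of detection. It lies on the minus strand at 21016763 to 21070872 of chromosome 14 (ENSG00000165795). Its estimated counts were 21, 4, 14 and 33 in WT normoxia, 33, 24, 16 and 23 in WT hypoxia and 4, 11, 15 and 10 in CCAR2 KO. The group means were 0.105 ± 0.0831, 0.234 ± 0.156 and 0.0901 ± 0.0535 CPM (SD, n = 4), with SDs of 59.3% to 78.8% of the mean, and all groups overlapped. Hypoxia replicates 1 and 2, the shallow libraries of that group, had the highest levels, 0.427 and 0.294 CPM.

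The log2 fold changes of *NDRG2* were 1.10 (SE 0.69, adjusted p = 0.289) in hypoxia, -0.27 (SE 0.71, adjusted p = 0.824) in KO cells and -1.38 (SE 0.65, adjusted p = 0.130) between KO and hypoxia, all in edgeR's test. None passed the threshold. Without the shallow hypoxia libraries, its log2 fold change in hypoxia was 0.02 (adjusted p = 0.989, edgeR), and between KO and hypoxia, with KO replicate 2 also left out, it was -0.66 (adjusted p = 0.598, edgeR). A difference in *NDRG2* was not detectable at this depth. The neural markers *GFAP* and *SYP* were near 0 as well, and *GFAP* was called higher in hypoxia, at 1.12 ± 0.263 against 0.582 ± 0.260 CPM. Whether it bears on the *NDRG2* and *NDRG4* values was not tested.

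**Figure D2:**
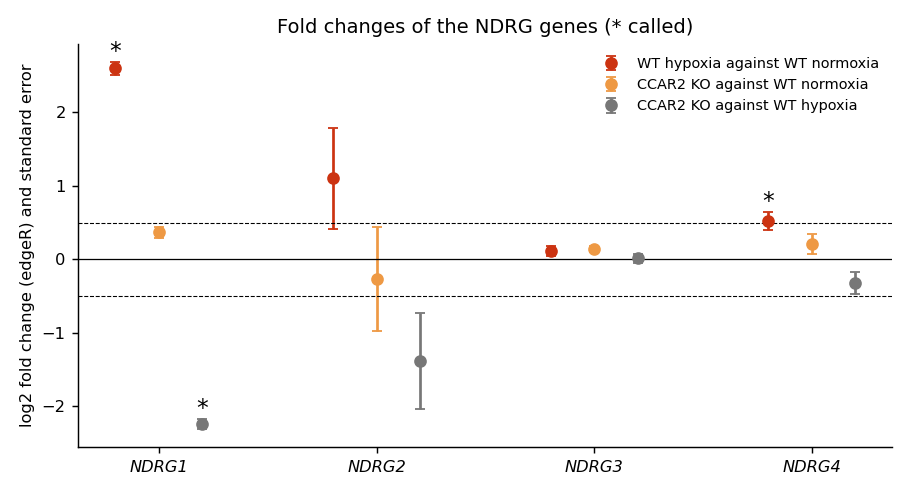
Log2 fold change of each NDRG gene in edgeR's fit, with its standard error as the bar, in 3 comparisons (colours). Dashed lines mark the fold limit of 0.5 in both directions and asterisks mark calls, which are *NDRG1* at 2.60 and -2.24 and *NDRG4* at 0.52.

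The members lie on 4 chromosomes, and 3 of them overlap other annotated genes. *NDRG2* shares 236 exon bases with *TPPP2* on the other strand, which had at most 3 estimated counts in any library. *ARHGEF40*, a guanine nucleotide exchange factor gene, starts 602 bases from the start of *NDRG2* on the other strand and shares no exon base with it. It was at 22.4 CPM in WT normoxia, 23.7 CPM in hypoxia and 32.6 CPM in KO cells, and the KO difference was called, at a log2 fold change of 0.54 (adjusted p = 8.9e-05, edgeR). No other gene that overlaps a member or starts within 50 kb of one was called in hypoxia or in KO cells against WT normoxia. Those inside *NDRG3* and *NDRG4*, small RNA genes, had at most 4 and 0 estimated counts.

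Promoter sequences are shown for *NDRG4* and *NDRG2*, the only members for which starts were given. RefSeq (GRCh38.p14) gave 4 starts for *NDRG4* and 5 for *NDRG2*, and none was given in the table for *NDRG1* or *NDRG3*. The 250 bases before each start were searched on both strands for ACGTG and GCGTG, the core letters of hypoxia response elements. The lines below give, for each gene, the only start with a match in the upstream stretch that lies outside all annotated exons. That stretch is printed 5′ to 3′ on the strand of the gene. Each match is in capitals as read on that strand (CACGC is GCGTG on the other strand).
NDRG4, 166 bases, plus strand, chr16:58463465-58463630: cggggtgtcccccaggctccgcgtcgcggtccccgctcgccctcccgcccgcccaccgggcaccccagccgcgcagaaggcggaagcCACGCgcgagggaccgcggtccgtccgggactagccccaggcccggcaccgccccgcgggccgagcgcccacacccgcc
NDRG2, 250 bases, minus strand, chr14:21070873-21071122: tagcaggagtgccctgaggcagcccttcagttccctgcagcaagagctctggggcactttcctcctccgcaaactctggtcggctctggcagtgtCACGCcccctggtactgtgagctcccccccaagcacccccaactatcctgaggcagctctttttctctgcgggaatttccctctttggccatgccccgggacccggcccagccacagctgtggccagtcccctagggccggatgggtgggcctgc

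The whole 250 bases before this *NDRG4* start held GCGTG 4 times, 1 of them in the stretch printed, at a GC content of 82.8%. The other 3 *NDRG4* starts held neither motif. Of the 5 *NDRG2* starts, 3 held GCGTG once each, and 2 of these windows overlap. ACGTG was found before none of the 9 starts. Among 35116 promoters of the same length, 32.2% held GCGTG, 18.5% held ACGTG and 43.2% held at least 1 of them, so that such matches are common. TATAAA stood before 1 start of *NDRG4* and 1 of *NDRG2*, and in 10.7% of all promoters. Which start is used in these cells was not measured, and whether a match bears on the level of either gene was not tested.

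Levels of different genes were compared per length, as CPM per kb of merged exons. In this unit the order was *NDRG1*, *NDRG3*, *NDRG4*, *NDRG2* in each of the 12 libraries. In WT normoxia *NDRG1* was at 20.8 ± 2.26, *NDRG3* at 16.4 ± 0.142, *NDRG4* at 0.298 ± 0.0202 and *NDRG2* at 0.0140 ± 0.0110 CPM per kb (SD, n = 4). No 2 members overlapped in any group, and *NDRG1* and *NDRG3* in normoxia were the closest, with *NDRG1* replicate 1 at 18.3 and *NDRG3* replicate 1 at 16.5 CPM per kb. Among 22118 genes ranked by this level, *NDRG1* went from place 2399 in normoxia to 301 in hypoxia and was at 1744 in KO cells. *NDRG3* was at 3081, 2734 and 2694, and *NDRG4* at 15119, 14448 and 14960.

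The family sum was 37.6 ± 2.26 CPM per kb in WT normoxia, 145 ± 6.72 in WT hypoxia and 45.4 ± 1.67 in CCAR2 KO (SD, n = 4). *NDRG1* made up 55.4% of it in normoxia, 87.4% in hypoxia and 59.4% in KO cells. *NDRG3* made up 43.8%, 12.3% and 39.8%, in that order. *NDRG4* and *NDRG2* together were the small rest, *NDRG4* at 0.792%, 0.296% and 0.755%. Which length is used moves the shares, since the merged exons of *NDRG1* span 9823 bases and its longest transcript 3983, against 3248 and 2978 for *NDRG3*. With the longest transcripts, *NDRG1* made up 73.4% in normoxia and 93.9% in hypoxia.

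**Figure D3:**
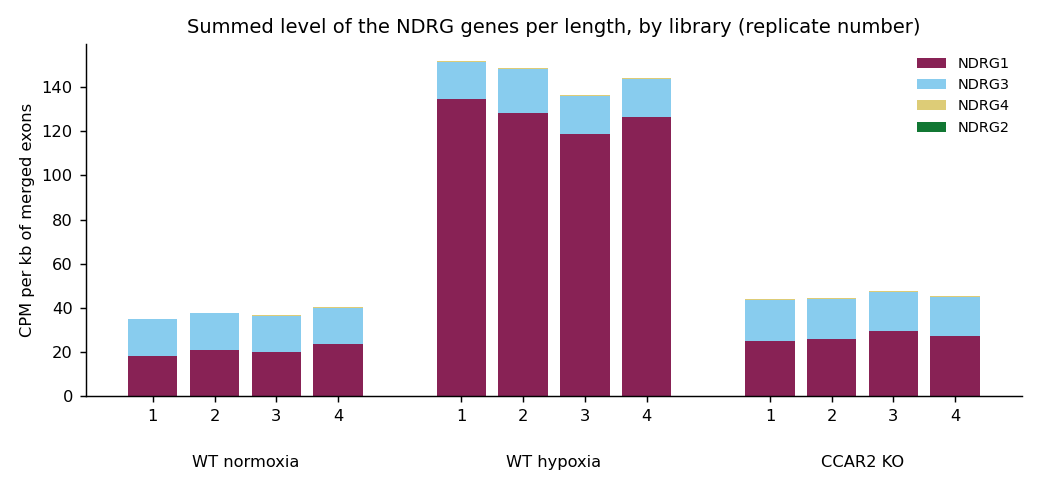
Summed level of the NDRG genes per length (vertical axis, CPM per kb of merged exons, from 0) in each library, stacked by gene. The hypoxia columns reach a mean of 145 against 37.6 in normoxia and 45.4 in KO cells, and the *NDRG3* part stays near 16 to 20 CPM per kb in all of them.

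The ratio of *NDRG1* to another member within a library was tested for 3 partners in 2 comparisons, with p-values adjusted over the 6 tests. In hypoxia the log2 ratio of *NDRG1* to *NDRG3* was higher by 2.49 and that to *NDRG4* by 2.09, each with no overlap between the groups. For each of them the exact two-sided permutation test gave p = 0.0286, the smallest it allows, and an adjusted p of 0.0857, so that 6 tests of this size could not have passed the threshold unless at least 4 of them were at the smallest p. The ratio to *NDRG2* was higher by 1.45 (p = 0.114, adjusted p = 0.171, exact permutation). In KO cells the differences were 0.24 for *NDRG3*, 0.18 for *NDRG4* and 0.43 for *NDRG2*, with adjusted p of 0.171, 0.171 and 0.486 (exact permutation).

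**Figure D4:**
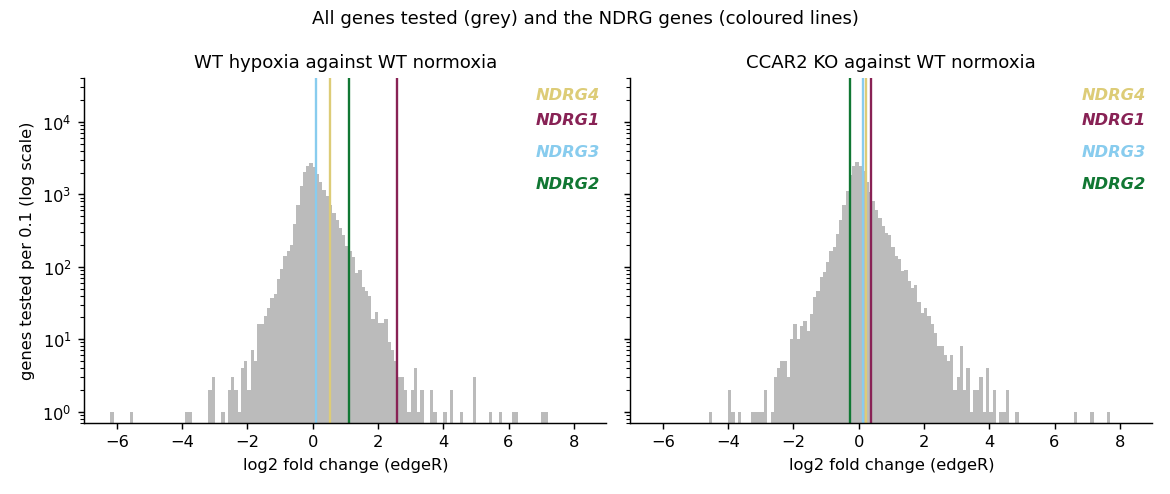
Log2 fold changes of all genes tested (grey, number of genes per 0.1 on a log axis) in hypoxia and in CCAR2 KO, with the NDRG genes as coloured lines. *NDRG1* stands in the far right tail in hypoxia, at 2.60, and inside the bulk of genes in KO cells, at 0.37.

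Genes with the profile most like that of each member across the 12 libraries were found by the root mean square difference of centred log2(CPM + 0.5) among 18285 genes with a symbol. For *NDRG1* these were *ALDOC*, a glycolytic aldolase, at a difference of 0.096, *ANGPTL4*, a secreted inhibitor of lipoprotein lipase, at 0.145, *SPAG4* at 0.155, *PPFIA4* at 0.201 and *RASSF4* at 0.276. *ALDOC* went from 8.27 CPM in normoxia to 47.8 CPM in hypoxia and was at 9.72 CPM in KO cells. *ANGPTL4* went from 9.64 to 55.7 CPM and was at 13.8 CPM in KO cells.

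For *NDRG3* the closest were *KDELR1*, a receptor that returns proteins to the endoplasmic reticulum, at 0.033, *ZNF512*, *TMBIM1*, *IFNGR2* and *BLCAP*, the last at 0.050. *KDELR1* was at 229, 247 and 253 CPM in normoxia, hypoxia and KO cells. The difference is not scaled to the size of the change, so that a nearly level gene such as *NDRG3* lies close to other nearly level genes. Its small values are therefore not comparable with those of *NDRG1*. For *NDRG4* they were *GOLGA2P5*, a pseudogene, at 0.091, *YPEL3*, *AP1G2*, *KRT15* and *ABTB1*, the last at 0.104. The closest to *NDRG2* were genes at or under 0.625 CPM, *RCN1P2*, *KRT16*, *CLUL1*, *DNAI3* and *KCNH2*, and at such levels the added 0.5 flattens every profile. With RLE size factors the same 5 genes were found for each member.

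Of 11 transcriptional regulators reported for NDRG genes, 9 could be tested. Over all genes tested, 5.83% were called higher and 1.43% lower in hypoxia. The shares in KO cells against WT normoxia were 6.73% and 2.94%. In hypoxia none was called higher and 1 was called lower, *HIF1A*, the oxygen-regulated subunit of HIF1, with a log2 fold change of -1.32 (SE 0.06). The list's median was -0.10, beside 0.01 over all genes. *MYC*, a repressor of *NDRG1*, was at 271 ± 13.1 CPM in hypoxia and 257 ± 13.6 CPM in normoxia (adjusted p = 0.466, edgeR). In KO cells *MYC* was lower, at 220 ± 7.35 CPM, a log2 fold change of -0.23 from WT normoxia (adjusted p = 0.00253, edgeR). That was under the fold limit, and its bearing on *NDRG1* was not tested. *MYCN*, for which the family is named, was at 0 in all libraries. Without CCAR2, 3 of these 9 passed for a higher level and none for a lower one. These were *HIF1A* at 0.65, *EPAS1*, the related HIF2 subunit, at 1.42, from 26.8 ± 1.96 to 71.7 ± 1.09 CPM, and the immediate early factor *EGR1* at 0.77. The list's median there was 0.20, beside 0.01 over all genes.

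Of 10 genes for kinases and a phosphatase that act on NDRG1 or NDRG2, 1 was called higher and 1 lower in hypoxia. *SGK2* rose by a log2 fold change of 0.94 (SE 0.30, adjusted p = 0.0399, edgeR) at a very low level, 0.308 ± 0.0855 to 0.599 ± 0.178 CPM. *RICTOR*, a subunit of mTORC2, fell by 0.50 on the log2 scale (SE 0.08, adjusted p = 0.0011, edgeR), only just past the limit for a call. *SGK1*, the main kinase of NDRG1, was at 17.0 ± 0.707 CPM in hypoxia and 20.1 ± 1.01 CPM in normoxia, a log2 fold change of -0.25 that was under the fold limit. In KO cells edgeR called none of the 10, while 3 of them had an unadjusted and an adjusted p under 0.05. The median of the list was -0.06 in hypoxia and -0.07 in KO cells, beside 0.01 over all genes in each. Calls over all genes tested were 7.26% in hypoxia and 9.67% in KO cells.

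Of 12 genes of the oxygen and lactate axis of NDRG3, 4 were called higher in hypoxia and none lower. The shares over all genes tested were 5.83% higher and 1.43% lower. *EGLN3*, an oxygen-sensing prolyl hydroxylase, rose from 2.96 ± 0.367 to 11.2 ± 0.811 CPM, a log2 fold change of 1.92. *EGLN1*, the hydroxylase that acts on NDRG3, rose by 0.52. *LDHA*, which makes lactate from pyruvate, rose by 0.75 and *SLC16A3*, a lactate exporter, by 0.73. The median of the list was 0.17. In KO cells 1 of the 12, *EGLN3*, was called, with a log2 fold change of 0.61, where 9.67% of all genes were called. The list's median there was 0.01.

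Of 12 reported partners and downstream genes of NDRG1, 11 could be tested in hypoxia, where 1, *ERRFI1*, an inhibitor of EGFR signalling, was called. It rose from 407 ± 9.55 to 717 ± 16.8 CPM, a log2 fold change of 0.81. All 12 could be tested in KO cells, and there 1, *CD82*, a tetraspanin known as a metastasis suppressor, was called, from 5.34 ± 0.892 to 20.9 ± 1.01 CPM, a log2 fold change of 1.97 (SE 0.11, adjusted p = 9.7e-08, edgeR). In hypoxia *CD82* was at 4.95 ± 0.401 CPM (adjusted p = 0.578 against normoxia). An adjusted p under 0.05 in edgeR was reached by 5 of the 11 in hypoxia and 5 of the 12 in KO cells. Over all genes it was reached by 5127 of 21776 and 6506 of 21410. In hypoxia the list's 5 were *ERRFI1* and, lower but under the fold limit, *CTNNB1* at -0.20, *CAV1* at -0.33, *LRP6* at -0.39 and *ROCK1* at -0.38. The list's medians were -0.12 in hypoxia and 0.03 in KO cells. Both counts of calls were near the shares over all genes tested, 7.26% in hypoxia and 9.67% in KO cells.

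Compared directly, KO cells and WT hypoxia gave calls in 2 transcriptional regulators, both higher in KO cells, in 3 of the kinase list, 2 higher and 1 lower, in 4 of the oxygen and lactate axis, all lower in KO cells, and in 2 of the NDRG1 partners, 1 in each direction. Over all genes tested in this comparison, 7.08% were called higher in KO cells and 7.88% lower. *EGLN3* was lower in KO cells by a log2 fold change of -1.32 and *LDHA* by -0.95. *CD82* was higher by 2.07 and *HIF1A* by 1.95.

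**Figure D5:**
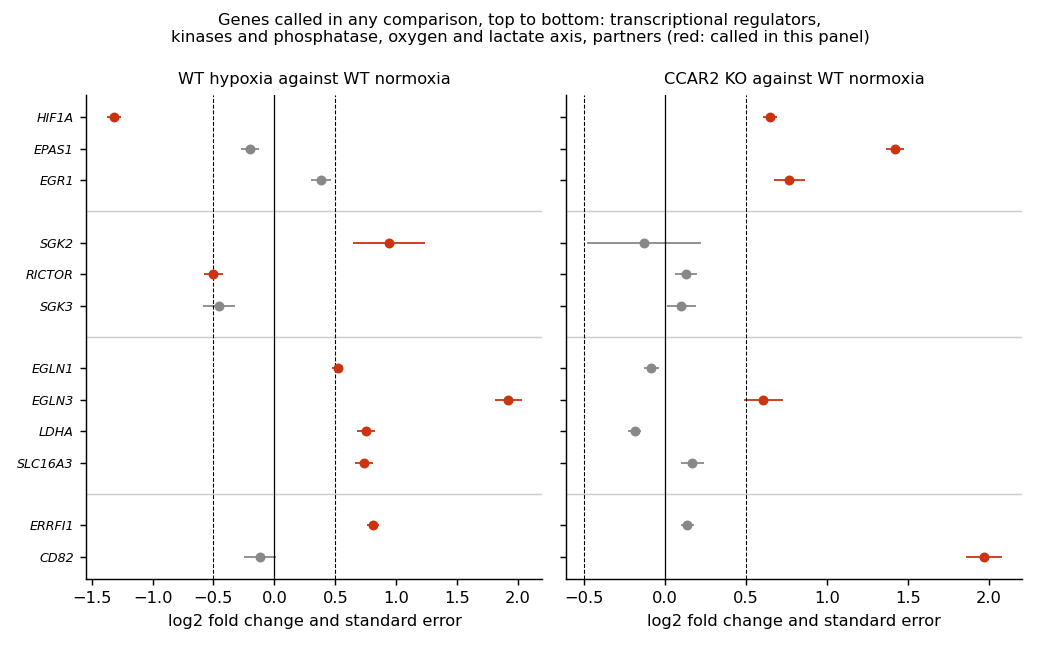
Log2 fold change and standard error in edgeR's fit for the genes of the 4 lists that were called in at least 1 of the 3 comparisons, in WT hypoxia and in CCAR2 KO against WT normoxia, with genes called in that panel in red and dashed lines at the fold limit of 0.5. *EGLN3* at 1.92 and *HIF1A* at -1.32 are farthest out in hypoxia, *CD82* at 1.97 and *EPAS1* at 1.42 in KO cells.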

How the data were processed

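The deposited table gives expected counts per gene, whole numbers that are estimates and not scaled to library size. The methods describe Hisat2 alignment and StringTie quantification, and the labels' processing notes name HISAT2, SAMtools and featureCounts. The genome build and annotation are not given in the sources used here. Values of 4 outnumbered values of 3 and of 5 in every library, so a sum is not read as a count of sequenced fragments. Counting error and any error of the estimates add to the spread between libraries.

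All 12 libraries were grouped by their labels. The methods speak of biological replicates, but state fewer of them than the 4 libraries labelled in each group. Which of the 4 are separate cultures is therefore not known. The p-values measure the spread between these libraries, which may be technical. Replicates differed by a chi-square of 17.1 to 135 for each degree of freedom, and no pair was identical. The highest was between hypoxia replicates 2 and 3.

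Each comparison was fitted on the 2 groups concerned, over all genes, by edgeR 4.0.16 under R 4.3.3 (TMM, filterByExpr, glmQLFit, glmQLFTest, Benjamini-Hochberg). Calls needed an adjusted p under 0.05 and a log2 fold change of 0.5 or more in either direction. Single members were also compared by an exact permutation test on log2(CPM + 0.01), with p-values not adjusted for the number of members and comparisons. Alternatives were DESeq2 1.42.0, limma-voom (limma 3.58.1), RLE and upper-quartile normalization, other filters and thresholds, 1 fit of all 12 libraries, the replicate block and each library left out. Counts divided by 4 and leaving out the shallow libraries were added after the data had been seen.

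Genes named are the members, *CCAR2*, genes of the lists that were called or whose role is described, genes that overlap a member or start within 50 kb of it, and the 5 closest profiles of each member. The members and lists were chosen with earlier results of these data known. Positions and lengths are from GENCODE 29 on GRCh38, and promoters from RefSeq. Counts without strand cannot separate overlapping genes, and whether strand was used is not given in the sources used here.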

Additional observations from a re-analysis of the deposited data

How the results depend on the processing

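*NDRG1* kept its call in hypoxia (log2 fold change 2.54 to 2.67) and against KO cells (-2.29 to -2.17) in all 18 alternatives of each, and stayed under the fold limit in KO against WT normoxia (0.31 to 0.44). *NDRG4* in hypoxia kept its direction in 18 of 18 and its call in 15. With each library left out in turn it was 0.47 to 0.58. *NDRG2* in KO against WT normoxia turned to 0.34 without normoxia replicate 4 and 0.04 without KO replicate 1, within a range of -0.63 to 0.34 when libraries were left out. *NDRG3* between KO and hypoxia turned to -0.013 with upper-quartile normalization, -0.021 without hypoxia replicate 1 and -0.0026 without hypoxia replicate 3, within a range of -0.021 to 0.074. The genes called went from 1582 to 5127 by adjusted p alone and to 487 at a log2 fold change of 1 or more in either direction in hypoxia, from 2070 to 6506 and 775 in KO against WT normoxia, and from 3165 to 7390 and 1219 between KO and hypoxia. The shares of the family sum with the longest transcripts were 73.4%, 93.9% and 76.5% for *NDRG1* and 25.7%, 5.85% and 22.7% for *NDRG3* in normoxia, hypoxia and KO. Libraries of the same replicate number had low correlations of deviations, from -0.01 to 0.19 in hypoxia and -0.07 to 0.08 in KO, both against WT normoxia. Between KO and hypoxia they were 0.02 to 0.09. Libraries of different numbers were not correlated for reference, so whether replicate numbers pair the libraries was not tested. With a replicate block *NDRG1* was at 2.60 and *NDRG4* at 0.52 in hypoxia, with 1507 genes called, and no call of a member changed. *NDRG2* had 16 alternatives, since the filters removed it with counts divided by 4 and with at least 10 counts required in every library. Low counts limit *NDRG2*.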
